A study of Mus musculus with 8 samples.

Results

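Potassium channel genes were examined in the cortex of mouse embryos with induced overexpression of VEGF. The 47 members comprise pore-forming and auxiliary subunits from 11 subfamilies, and they were chosen by gene symbol from a list put together with the VEGF minus control differences of these arrays already known. A probe set was used where the platform annotation gave it exactly 1 symbol and that symbol was a member, with the mean taken where a gene had several. All 47 members were measured, out of 19938 genes on the array, 45 by 1 probe set and Kcna2 and Kcnma1 by 2 each. Because the choice drew on this same contrast, the differences of the members are given as a description without a test, and the shares over all genes stand beside them for reading.

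The arrays hold RNA from brain cortex at embryonic day 16 on a mixed strain background. The control group has 4 arrays labelled wild type, described in the labels as without TetO-VEGF-A164, and the labels do not say whether these embryos carried GFAP-tTA. The VEGF group has 4 arrays of GFAP-tTA: TetO-VEGF-A164 bitransgenic embryos, in which the tetracycline-controlled transactivator under the Gfap promoter switches on a transgene for the VEGF-A164 form. VEGF-A cannot be told apart here from the transactivator or the insertions, which only this group is stated to carry. VEGF-A is the main growth factor of blood vessels and also acts on neural cells, and the transgene is driven only where the Gfap promoter is active. Nothing in the labels says whether an array holds 1 embryo or a pool, or whether the arrays of a group came from separate litters, so the spread between arrays may be partly technical.

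Values are log2 as far as their range shows, each probe set centred on its median over the 8 arrays, so they keep differences between arrays but no level, and neither the tissue label nor the rank of one channel against another can be read from them. Differences are given on this scale and not as folds, because the base of the logarithm is not stated. Vegfa itself lay between -0.12 and 0.036 in control and between -0.055 and 0.078 in the VEGF group, so the label VEGF rests on the sample names and every direction below is that of the arrays so labelled. Xist and 3 Y-linked genes gave a female pattern on control 3, VEGF 2 and VEGF 3. VEGF 2 had the broadest values over all probe sets, with an interquartile range of 0.142, and the other arrays lay between 0.061 and 0.102.

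Potassium channels let potassium ions leave or enter the cell along their gradient and so set the resting potential, end action potentials and tune firing. Pore-forming subunits assemble around a central pore, and auxiliary subunits bind them in the cytoplasm or the membrane and change their gating or their transport to the surface. In the embryonic cortex, channel genes are switched on as neurons leave the cell cycle and mature, while some inward rectifiers and tandem pore channels also act in progenitors and glia.

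Most members had a lower mean on the VEGF arrays. The mean of the 47 members was 0.096, 0.065, -0.0036 and 0.045 on control 1 to control 4 and -0.0089, -0.046, -0.19 and -0.042 on VEGF 1 to VEGF 4, and no VEGF array reached the lowest control array. VEGF 3 was the lowest array by a wide step, and the other VEGF arrays lay close under control 3. The group means were 0.050 ± 0.042 in control and -0.072 ± 0.081 in the VEGF group (SD, n = 4 each), a difference of -0.12 on the log2 scale, against -0.0090 for all genes. A lower mean was seen in 38 of 47 members, or 80.9%, and in 56.7% of all genes. Centring each array on its median left 37 lower members and quantile normalization 35.

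The median difference of the members was -0.12, against -0.010 for all genes, and single members ranged from -0.39 in Kcnq3 to 0.10 in Kcnj2. A difference below -0.2 was reached by 15 members, a level that 2.94% of all genes passed, and no member lay above 0.2, where 2.66% of all genes did. In 5 members, Kcnab3, Kcnd3, Kcnq5, Kcnk2 and Kcnn3, every VEGF array lay below every control array, and 4.71% of all genes were separated in that direction and 6.84% in either. Nothing is read from this count or from those at -0.2 and 0.2, because the choice of members used the same contrast. The members also spread more within the groups, with a median residual SD of 0.13 against 0.075 for all genes. Genes that spread more pass a fixed level more readily. No member was separated upwards, against 2.13% of all genes.

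**Figure D1:**
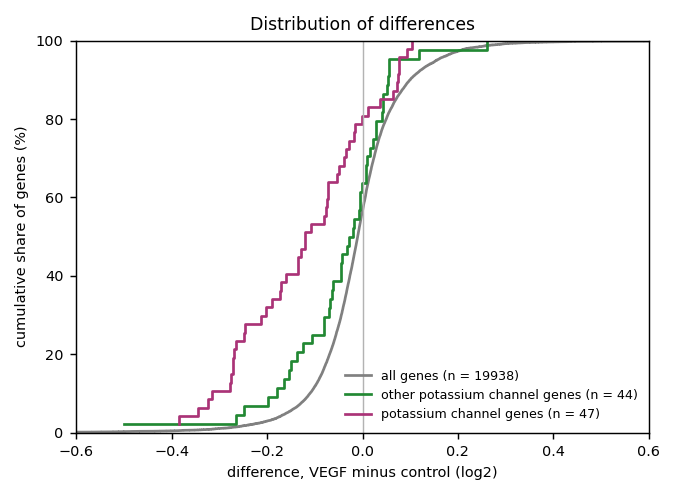
Cumulative share of genes (y axis, %) against the VEGF minus control difference (x axis, log2) for all genes, the other potassium channel genes and the 47 potassium channel genes. The curve of the 47 is shifted to the left at its middle, with a median of -0.12 against -0.010 for all genes. The 47 were chosen with this contrast known, so the distance between the curves is no test.

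No single difference passed the test over the whole array. With limma's moderated test, 0 of 19938 genes and thus 0 members had a Benjamini-Hochberg adjusted p under 0.05, a share of 0%. At an unadjusted p under 0.05 limma gave 2484 genes, 12.5% of all, and 16 members, all lower, where 7.84% of all genes were lower and 4.62% higher by this rule. These member counts are a description only. The methods' t-test gave 2114 genes, 10.6%, with 11 members among them, and 0 genes after adjustment. Without VEGF 4, 10 genes passed limma's adjusted threshold, 0.0502% of all, and 0 of them were members. The median of the members was -0.066 without VEGF 3, with 31 of 47 lower, and -0.096 with a sex covariate. The count of members with separated groups was 15 without VEGF 4 (all genes 13.0%), 11 without control 3 (13.7%), 10 without control 2 (9.86%) and 8 without VEGF 1 (11.6%). It was 6 without control 1 (8.79%), 5 without control 4 (8.32%), 7 without VEGF 2 (9.86%) and 5 without VEGF 3 (8.86%).

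**Figure D2:**
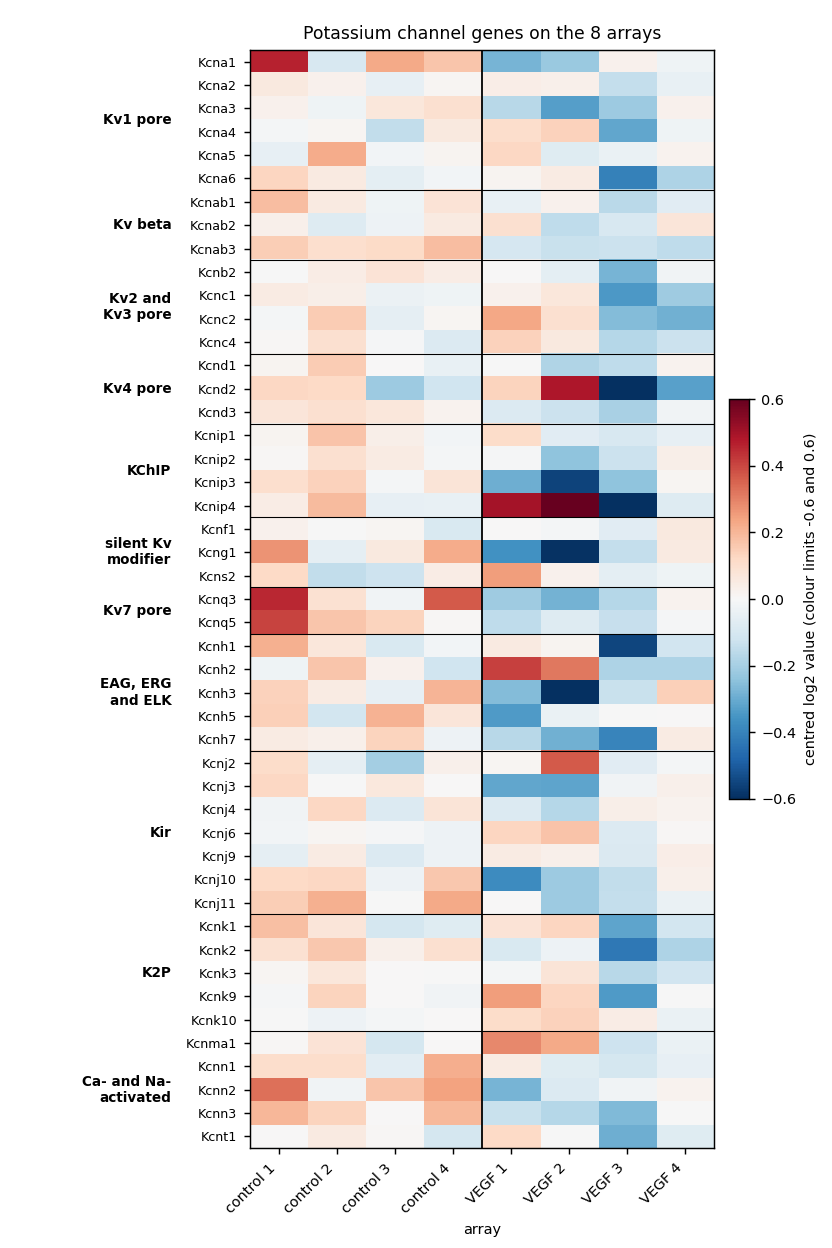
Centred log2 value (colour, limits -0.6 and 0.6) of each potassium channel gene (rows, by subfamily) on each array (columns). Blue dominates on VEGF 3, where 39 of 47 members lie below the control range. Kcnd2, Kcnip4 and Kcnh2 lie above the control range on VEGF 1 and VEGF 2 and below it on VEGF 3 and VEGF 4. The step is small for Kcnd2 on VEGF 1, at 0.13, and for Kcnip4 on VEGF 4, at -0.077.

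Promoter windows are shown for members at the ends of these patterns, so that the letters upstream of genes with a like pattern over the arrays can be compared. Each runs from 250 bases before to 50 after an annotated transcription start, 5′ to 3′ on the gene's strand, from RefSeq on GRCm38.p6, and is the first window listed for its gene. They cover 4 of the 5 members in which every VEGF array was below every control array, Kcnd3 at chr3:105451640-105451939 (plus strand), Kcnq5 at chr1:21962601-21962900 (minus strand), Kcnk2 at chr1:189402224-189402523 (minus strand) and Kcnn3 at chr3:89519914-89520213 (plus strand). Capitals mark the E-box CANNTG and the GC box GGGCGG, on either strand, and matches of the motifs can share bases.
Kcnd3: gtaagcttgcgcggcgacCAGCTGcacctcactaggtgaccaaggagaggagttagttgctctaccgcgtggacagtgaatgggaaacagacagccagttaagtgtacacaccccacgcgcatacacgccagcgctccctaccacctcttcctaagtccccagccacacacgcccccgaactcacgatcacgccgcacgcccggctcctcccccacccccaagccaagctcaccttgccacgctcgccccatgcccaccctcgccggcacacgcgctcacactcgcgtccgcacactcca
Kcnq5: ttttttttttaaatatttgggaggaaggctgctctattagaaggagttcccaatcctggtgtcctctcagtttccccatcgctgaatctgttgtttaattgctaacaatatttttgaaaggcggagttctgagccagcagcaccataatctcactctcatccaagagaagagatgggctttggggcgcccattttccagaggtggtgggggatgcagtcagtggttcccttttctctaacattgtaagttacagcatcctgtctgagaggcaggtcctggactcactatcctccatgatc
Kcnk2: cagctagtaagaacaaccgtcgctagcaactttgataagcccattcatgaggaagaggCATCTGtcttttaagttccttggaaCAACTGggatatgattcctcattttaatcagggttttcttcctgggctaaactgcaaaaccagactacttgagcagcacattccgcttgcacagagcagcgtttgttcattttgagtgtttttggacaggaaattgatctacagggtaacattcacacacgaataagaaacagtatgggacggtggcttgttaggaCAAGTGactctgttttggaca
Kcnn3: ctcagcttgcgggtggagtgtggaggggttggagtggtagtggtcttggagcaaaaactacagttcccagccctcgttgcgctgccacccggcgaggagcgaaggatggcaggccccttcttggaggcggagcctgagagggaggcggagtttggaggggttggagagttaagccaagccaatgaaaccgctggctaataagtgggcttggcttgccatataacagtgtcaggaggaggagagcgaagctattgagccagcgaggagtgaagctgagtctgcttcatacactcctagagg

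The other set follows a pattern picked out after the values were seen. The share of all genes with this pattern was not counted, so nothing is read from the number of members. This set holds the 3 members above the control range on VEGF 1 and VEGF 2 and below it on VEGF 3 and VEGF 4. They are Kcnd2 at chr6:21215096-21215395 (plus strand), Kcnip4 at chr5:49285610-49285909 (minus strand) and Kcnh2 at chr5:24329542-24329841 (minus strand), with the same motifs in capitals.
Kcnd2: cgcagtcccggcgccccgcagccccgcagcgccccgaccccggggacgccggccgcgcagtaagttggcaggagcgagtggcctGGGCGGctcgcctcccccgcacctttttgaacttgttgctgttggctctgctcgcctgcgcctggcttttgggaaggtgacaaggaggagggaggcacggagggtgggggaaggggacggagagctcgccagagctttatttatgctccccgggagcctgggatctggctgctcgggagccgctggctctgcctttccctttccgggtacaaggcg
Kcnip4: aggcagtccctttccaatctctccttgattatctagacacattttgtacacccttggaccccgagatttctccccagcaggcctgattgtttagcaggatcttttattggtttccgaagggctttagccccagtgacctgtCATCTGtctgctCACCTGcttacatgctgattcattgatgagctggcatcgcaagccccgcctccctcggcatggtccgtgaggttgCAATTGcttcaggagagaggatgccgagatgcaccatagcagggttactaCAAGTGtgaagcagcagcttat
Kcnh2: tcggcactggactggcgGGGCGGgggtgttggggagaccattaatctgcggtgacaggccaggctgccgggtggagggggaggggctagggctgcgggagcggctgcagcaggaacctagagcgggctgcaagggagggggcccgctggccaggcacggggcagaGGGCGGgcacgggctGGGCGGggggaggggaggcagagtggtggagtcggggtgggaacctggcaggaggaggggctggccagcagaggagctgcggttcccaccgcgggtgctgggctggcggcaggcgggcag

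The windows of each set differ among themselves. Kcnk2 and Kcnip4 hold 3 and 4 E-boxes and no GC box, Kcnh2 holds 3 GC boxes and Kcnd2 1, Kcnd3 holds 1 E-box, and Kcnq5 and Kcnn3 hold neither motif. GC content runs from 43.0% in Kcnk2 to 74.3% in Kcnh2. RefSeq windows were at hand for 34 of the 47 members and for 27025 genes, first window each. In this paragraph all genes means these 27025, which were not limited to the genes on the array. A GC box was present in 20 of 34 members against 35.9% of all genes and an E-box in 21 of 34 members against 72.1% of all genes. The TATA element TATAAA occurred in 1 of 34 members against 14.2% of all genes, CCAAT in 14 of 34 members against 37.9% of all genes and the short CRE element TGACG in 8 of 34 members against 21% of all genes. The full CRE TGACGTCA, which contains the short one, and the left part TTCAGCACC of the RE1 element were found in 0 of the 34 windows, against 1.88% and 0.359% of all genes. The median window of the members had 62.5% GC and 17 CG dinucleotides, against 52.7% and 7 for all genes. These counts describe letters in a window and no binding.

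The 4 VEGF arrays did not contribute alike. VEGF 3 lay below all 4 control arrays in 39 of 47 members, against 34.6% of all genes, and above them in 1, Kcnk10, against 21.6%. The count below the control range was 19 on VEGF 1 (all genes 22.1%), 24 on VEGF 2 (all genes 36.6%) and 20 on VEGF 4 (all genes 23.3%). VEGF 1 was above the control range in 13 members (all genes 23.3%), VEGF 2 in 10 (all genes 27.8%) and VEGF 4 in 2, Kcnab2 and Kcnf1 (all genes 16.3%). VEGF 3 held the lowest of the 8 values in 24 members (all genes 22.2%) and VEGF 2 in 12 (all genes 25.1%). Control 1 held the highest in 12 (all genes 10.5%) and the lowest in 0 (all genes 11.2%). Counting arrays per gene, 5 members had all 4 VEGF arrays below the control range (all genes 4.71%). A further 14 had 3 arrays below it, 15 had 2 and 10 had 1, and Kcnf1, Kcns2 and Kcnj2 had none. The share over all genes was not counted for 3 or fewer arrays, so nothing is read from those counts.

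The members had a larger median SD within each group than all genes. The median SD over the 4 control arrays was 0.084 for the members and 0.059 for all genes, and over the 4 VEGF arrays it was 0.15 and 0.080. The VEGF arrays were the more spread in 37 of 47 members and in 68.5% of all genes.

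The subfamily means kept the same sign throughout. All 11 were lower in the VEGF group, also with arrays centred on their medians and after quantile normalization. The differences ranged from -0.073 in the K2P channels to -0.33 in the Kv7 channels. Nothing is read from the shared sign, because the members were chosen with this contrast known. In 4 subfamilies, the Kv1 channels, the Kv beta subunits, the Kv7 channels and the EAG, ERG and ELK channels, no VEGF array reached the lowest control array. In the other 7 the groups overlapped. How often the mean of a like set of genes is separated was not counted, so nothing is read from these counts.

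**Figure D3:**
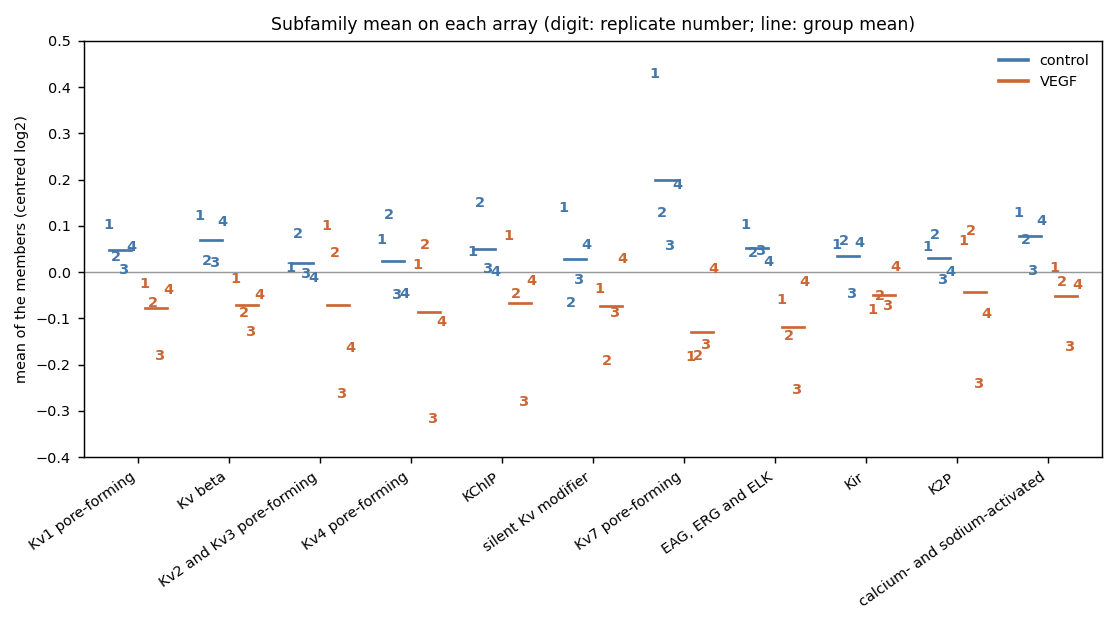
Mean of the members of each subfamily (y axis, centred log2) on each array, with the digit giving the replicate number, the colour the group and the line the group mean. VEGF 3 is the lowest of the 8 arrays in 8 of the 11 subfamilies, with -0.32 in the Kv4 channels, while control 1 stands high in the Kv7 channels at 0.43.

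Kv1 channels are delayed rectifiers and fast inactivating channels, many of them on axons, and their pore-forming subunits are encoded by Kcna genes. All 6 members had a lower mean, from -0.32 in Kcna1 to -0.0008 in Kcna4. Kcna7 and Kcna10, measured but not members, differed by 0.0078 and 0.0066. Kcna1 was at 0.46, -0.095, 0.23 and 0.16 on control 1 to control 4 and at -0.28, -0.22, 0.024 and -0.024 on VEGF 1 to VEGF 4. The low values of Kcna1, an axonal delayed rectifier, were those of VEGF 1 and VEGF 2, while VEGF 3 and VEGF 4 lay within the control range, and the difference was -0.32 ± 0.11 (SE, n = 4 per group). On control 1 to control 4 the values of Kcna3 were 0.025, -0.024, 0.066 and 0.096, against -0.17, -0.33, -0.22 and 0.024 on VEGF 1 to VEGF 4. Kcna3, known from T lymphocytes and also found in neurons and microglia, was below the control range on 3 VEGF arrays and within it on VEGF 4, with a difference of -0.21 ± 0.070. Kcna6 differed by -0.16, and by -0.068 without VEGF 3, the array of its lowest value. Kcna2 differed by -0.040 and by -0.0015 without VEGF 3. Kcna4, the fast inactivating member, was above the control range on VEGF 1 and VEGF 2 and at -0.31 on VEGF 3. The sign of 2 members turned when 1 array was left out, since Kcna4 differed by 0.096 without VEGF 3 and Kcna5, at -0.034 on all arrays, by 0.025 without control 2. The probe sets of Kcna2 differed by -0.062 and -0.017.

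Kv beta subunits are cytoplasmic proteins with the fold of aldo-keto reductases that bind Kv1 channels and speed their inactivation or aid their transport. Kcnab3 had the smallest residual SD of the 47 members, 0.031. Kcnab3 was at 0.15, 0.099, 0.12 and 0.19 on control 1 to control 4 and at -0.099, -0.14, -0.13 and -0.15 on VEGF 1 to VEGF 4. Every VEGF value was below every control value, with control 2 and VEGF 1 at the near ends, and the difference was -0.27 ± 0.034. Kcnab1 stood at 0.19, 0.053, -0.024 and 0.082 on the control arrays, replicates 1 to 4, and at -0.042, 0.024, -0.16 and -0.067 on the VEGF arrays. Kcnab1 was below the control range on VEGF 1, VEGF 3 and VEGF 4 and differed by -0.14, while Kcnab2 differed by -0.015, with 2 VEGF arrays above the control range and 2 below it. Its sign turned with the array left out, from -0.053 without VEGF 1 to 0.029 without VEGF 2.

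Kv2 channels are the main delayed rectifiers of the neuronal cell body, and Kv3 channels allow fast firing in interneurons. All 4 measured genes had a lower mean and their groups overlapped. Kcnb2 was at -0.0034, 0.044, 0.082 and 0.045 on control 1 to control 4 and at 0.0034, -0.057, -0.28 and -0.020 on VEGF 1 to VEGF 4. Kcnb2, a Kv2 subunit, was below the control range on VEGF 2 to VEGF 4 and differed by -0.13 (SE 0.061), and by -0.066 without VEGF 3. On control 1 to control 4 the values of Kcnc1 were 0.048, 0.034, -0.036 and -0.027, against 0.027, 0.069, -0.34 and -0.21 on VEGF 1 to VEGF 4. Kcnc1 was below the control range on VEGF 3 and VEGF 4 and above it on VEGF 2, and its difference of -0.12 (SE 0.086) was -0.045 without VEGF 3 and -0.18 without VEGF 2. The Kv3 subunits Kcnc2 and Kcnc4 showed the same division, above the control range on VEGF 1 and below it on VEGF 3 and VEGF 4, with differences of -0.080 and -0.029. With 1 array left out Kcnc2 ranged from -0.18 without VEGF 1 to -0.0020 without VEGF 4, and Kcnc4 turned to 0.019 without VEGF 3. The mean of the subfamily, at -0.090, was -0.026 without VEGF 3, -0.059 without VEGF 4 and -0.15 without VEGF 1.

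Kv4 channels carry the A-type current of dendrites and cell bodies, and the calcium-binding KChIP proteins are their auxiliary subunits. Kcnd3 was at 0.070, 0.096, 0.067 and 0.021 on control 1 to control 4 and at -0.083, -0.13, -0.20 and -0.021 on VEGF 1 to VEGF 4. In Kcnd3 the groups were separated by a narrow gap between control 4 and VEGF 4, and the difference was -0.17 ± 0.043. Kcnd1 stood at 0.014, 0.15, 0.0004 and -0.046 on the control arrays, replicates 1 to 4, and at -0.0004, -0.18, -0.15 and 0.023 on the VEGF arrays. Kcnd1 was below the control range on VEGF 2 and VEGF 3 only, and its difference of -0.11 (SE 0.061) was -0.066 without control 2, -0.069 after quantile normalization and -0.038 with array weights. Kcnd2 stood at 0.12, 0.12, -0.22 and -0.12 on the control arrays, replicates 1 to 4, and at 0.13, 0.49, -0.60 and -0.33 on the VEGF arrays. Kcnd2 was above the control range on VEGF 1 and VEGF 2 and below it on VEGF 3 and VEGF 4, around a difference of -0.054 (SE 0.21) whose sign turned with the array left out, from -0.24 without VEGF 2 to 0.12 without VEGF 3. The Kv4 mean of -0.11 was -0.034 without VEGF 3.

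Among the KChIP genes, Kcnip3 was at 0.10, 0.14, -0.012 and 0.076 on control 1 to control 4 and at -0.30, -0.55, -0.24 and 0.012 on VEGF 1 to VEGF 4. Kcnip3, which also acts as the transcriptional repressor DREAM, was below the control range on 3 VEGF arrays and within it on VEGF 4, a difference of -0.35 ± 0.10. Kcnip2 stood at 0.0073, 0.097, 0.050 and -0.010 on the control arrays, replicates 1 to 4, and at -0.0073, -0.24, -0.13 and 0.036 on the VEGF arrays. Kcnip2 was below the control range on VEGF 2 and VEGF 3 and differed by -0.12 (SE 0.061), -0.069 without VEGF 2 and -0.055 with array weights, and Kcnip1 by -0.077, -0.037 without control 2 and -0.12 without VEGF 1. On control 1 to control 4 the values of Kcnip4 were 0.046, 0.19, -0.050 and -0.046, against 0.50, 0.67, -0.65 and -0.077 on VEGF 1 to VEGF 4. Kcnip4 had the widest residual spread of the 47 members, with an SD of 0.43. Like Kcnd2 it was above the control range on VEGF 1 and VEGF 2 and below it on VEGF 3 and VEGF 4, on VEGF 4 only just. The mean difference of Kcnip4 was 0.075. Its sign turned with the array left out, from -0.11 without VEGF 2 to 0.33 without VEGF 3. The KChIP mean of -0.12 was -0.046 without VEGF 3.

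Kcnf1, Kcng1 and Kcns2 encode silent subunits, which form no channel of their own and modify Kv2 channels. On all arrays only Kcng1 had a lower mean. Kcng1 was at 0.27, -0.053, 0.060 and 0.22 on control 1 to control 4 and at -0.36, -0.59, -0.14 and 0.053 on VEGF 1 to VEGF 4. It was below the control range on 3 VEGF arrays, lowest on VEGF 2, and differed by -0.38 ± 0.13. Kcns2 stood at 0.12, -0.15, -0.12 and 0.046 on the control arrays, replicates 1 to 4, and at 0.25, 0.028, -0.060 and -0.028 on the VEGF arrays. Kcns2 was above the control range on VEGF 1 only and differed by 0.073 (SE 0.082), from 0.0054 without VEGF 1 to 0.12 without control 1, and Kcnf1 by 0.011, -0.015 without control 4 and 0.050 with array weights. The mean of these 3 genes was -0.10 and their median 0.011, so the sign of the mean is that of Kcng1, and the mean was -0.060 without VEGF 2 and -0.064 without control 1.

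Kv7 channels carry the M-current, which holds back repetitive firing and is closed by muscarinic receptors. Both members had a lower mean, and Kcnq3 had the lowest difference of the 47. Kcnq3 was at 0.45, 0.090, -0.020 and 0.37 on control 1 to control 4 and at -0.21, -0.29, -0.17 and 0.020 on VEGF 1 to VEGF 4. Kcnq3 was below the control range on VEGF 1 to VEGF 3, VEGF 4 lay between control 3 and control 2, and the difference was -0.39 ± 0.11. On control 1 to control 4 the values of Kcnq5 were 0.40, 0.17, 0.13 and 0.0090, against -0.15, -0.076, -0.14 and -0.0090 on VEGF 1 to VEGF 4. Kcnq5 was separated, with VEGF 4 and control 4 at the near ends, and differed by -0.27 ± 0.077. In both genes control 1 was the highest array, and without it the differences were -0.31 and -0.20.

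The EAG, ERG and ELK channels are voltage-gated channels with a cyclic nucleotide binding-like domain, and 4 of 5 members had a lower mean. Kcnh3 was at 0.14, 0.049, -0.049 and 0.21 on control 1 to control 4 and at -0.26, -0.70, -0.13 and 0.14 on VEGF 1 to VEGF 4. Kcnh3, an ELK channel of the forebrain, was lowest on VEGF 2 and within the control range on VEGF 4, and its difference of -0.32 ± 0.15 was -0.17 without VEGF 2. Kcnh7 stood at 0.047, 0.030, 0.13 and -0.030 on the control arrays, replicates 1 to 4, and at -0.17, -0.29, -0.40 and 0.049 on the VEGF arrays. Kcnh7, an ERG channel of neurons, differed by -0.25 ± 0.087, with 3 VEGF arrays below the control range, and by -0.16 with array weights. The EAG channels Kcnh1 and Kcnh5 differed by -0.19 and -0.17, and by -0.057 without VEGF 3 and -0.092 without VEGF 1. Kcnh1 was below the control range on VEGF 3, at -0.55, and on VEGF 4, at -0.11, while Kcnh5 was below it on VEGF 1 alone, at -0.34. Kcnh2 was at -0.026, 0.17, 0.026 and -0.12 on control 1 to control 4 and at 0.41, 0.32, -0.19 and -0.18 on VEGF 1 to VEGF 4. Kcnh2, the ERG channel that also repolarises the heart, thus had VEGF arrays on both sides of the control range, with a mean difference of 0.077 (SE 0.14) whose sign turned with the array left out, from -0.030 without VEGF 1 to 0.17 without VEGF 3.

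**Figure D4:**
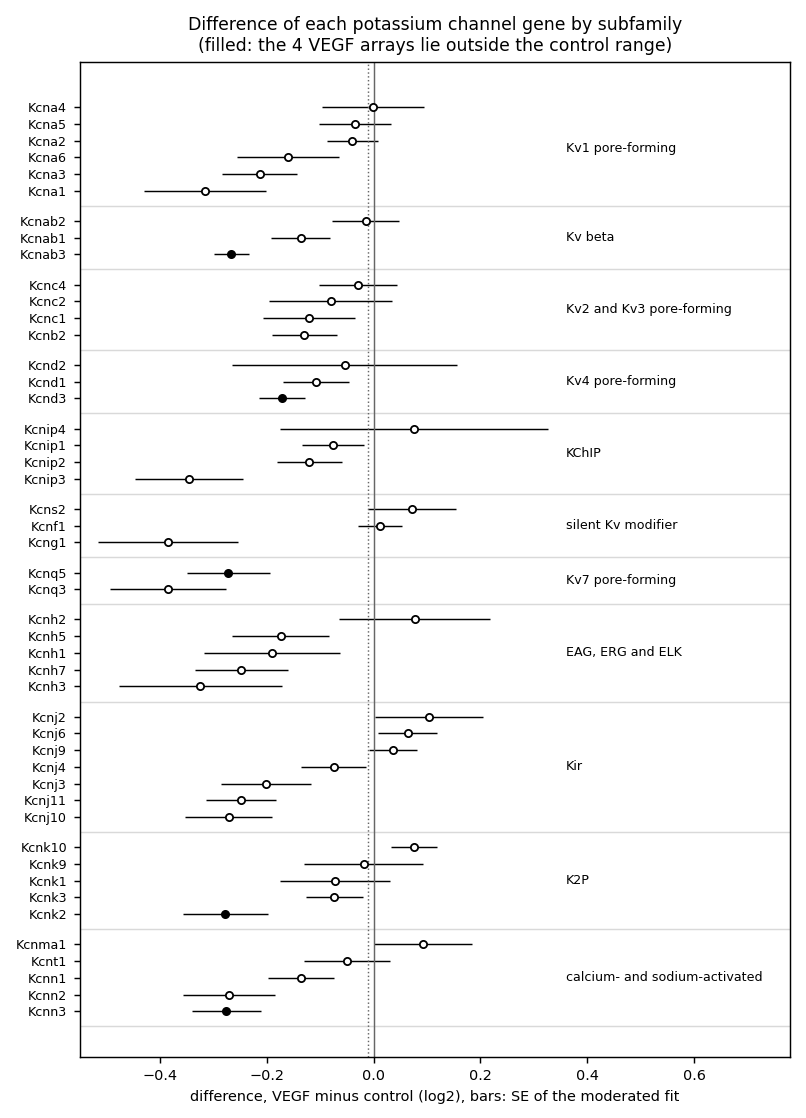
VEGF minus control difference (x axis, log2) of each member with the SE of the moderated fit, by subfamily, with filled points for the 5 members whose groups do not overlap and a dotted line at the median of all genes, -0.010. The filled points lie between -0.28 and -0.17, and the widest bar is that of Kcnip4.

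Inward rectifiers pass potassium best at negative potentials and hold the resting potential. Of 7 members 4 had a lower and 3 a higher mean. Kcnj10 was at 0.12, 0.12, -0.030 and 0.16 on control 1 to control 4 and at -0.38, -0.22, -0.15 and 0.030 on VEGF 1 to VEGF 4. Kcnj10, the rectifier with which astrocytes and oligodendrocytes take up potassium, was below the control range on 3 VEGF arrays and within it on VEGF 4, and differed by -0.27 ± 0.081. Kcnj11 stood at 0.15, 0.21, -0.0020 and 0.23 on the control arrays, replicates 1 to 4, and at 0.0020, -0.22, -0.14 and -0.042 on the VEGF arrays. Kcnj11, the pore of the ATP-sensitive channel, was below the control range on VEGF 2 to VEGF 4 and differed by -0.25 ± 0.065.

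The G protein-gated rectifiers had differences of either sign. Kcnj3 differed by -0.20, with VEGF 1 and VEGF 2 at -0.31 and -0.32, while Kcnj6 and Kcnj9 differed by 0.064 and 0.036. With 1 array left out, Kcnj6 ranged from 0.026 without VEGF 2 to 0.11 without VEGF 3 and Kcnj9 from 0.018 without control 3 to 0.068 without VEGF 3. The classical strong rectifier Kcnj2 had the highest difference of all members over the 8 arrays at 0.10, with VEGF 2 at 0.37 and control 3 at -0.20, but it was 0.0066 without VEGF 2 and 0.15 without VEGF 3. Its relative Kcnj4 differed by -0.075, and by -0.034 without VEGF 2.

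K2P channels carry the background leak of potassium, and 4 of 5 members had a lower mean. Kcnk2 was at 0.093, 0.16, 0.028 and 0.094 on control 1 to control 4 and at -0.093, -0.028, -0.43 and -0.18 on VEGF 1 to VEGF 4. Kcnk2, a mechanosensitive channel of the TREK type, was separated, with VEGF 3 farthest down, and differed by -0.28 ± 0.080. On control 1 to control 4 the values of Kcnk10 were -0.0017, -0.032, -0.013 and 0.0017, against 0.11, 0.14, 0.046 and -0.038 on VEGF 1 to VEGF 4. Kcnk10, a TREK relative, was above the control range on VEGF 1 to VEGF 3 and below it on VEGF 4, and differed by 0.075 (SE 0.043), 0.041 with array weights. The acid-sensitive Kcnk3 and Kcnk9 differed by -0.073 and -0.018 and Kcnk1 by -0.072, each lowest on VEGF 3. Without VEGF 3 the signs of Kcnk9 and Kcnk1 turned, to 0.098 and 0.015, and Kcnk3 was at -0.036. The K2P mean of -0.073 was -0.0074 without VEGF 3, -0.12 without VEGF 2 and -0.11 without VEGF 1.

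Calcium-activated SK channels shape the pause after an action potential, and all 3 of their genes had a lower mean. Kcnn3 was at 0.20, 0.13, 0.0004 and 0.20 on control 1 to control 4 and at -0.14, -0.17, -0.27 and -0.0004 on VEGF 1 to VEGF 4. Kcnn3 was separated, though control 3 and VEGF 4 all but met, and differed by -0.28 ± 0.065. Kcnn2 stood at 0.33, -0.022, 0.17 and 0.24 on the control arrays, replicates 1 to 4, and at -0.28, -0.082, -0.023 and 0.022 on the VEGF arrays. Kcnn2 was below the control range on VEGF 1 to VEGF 3, by least on VEGF 3, and differed by -0.27 ± 0.086, while Kcnn1 differed by -0.14. Kcnma1, the large-conductance calcium-activated channel, was at 0.29 and 0.23 on VEGF 1 and VEGF 2 and below the control range on VEGF 3, for a difference of 0.092, with its probe sets at 0.16 and 0.025. This difference ranged from 0.026 without VEGF 1 to 0.16 without VEGF 3. The sodium-activated Kcnt1 differed by -0.050, and its sign turned to 0.027 without VEGF 3.

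A list of other potassium channel and auxiliary genes, drawn up by family name and without the 47, was measured for 44 of its 50 genes, and the other 6 are not analysed here. The 47 had been taken out with this contrast known, so a gap between this list and the members can follow from that choice alone. Of the 44, 28 had a lower mean (all genes 56.7%) and 16 a higher mean. The median was -0.024 against -0.010 for all genes, though it was 0.0065 after quantile normalization, 0.0006 with array weights, 0.0040 with a sex covariate and 0.017 without control 2. None of the 44 passed the adjusted limma test. At an unadjusted limma p under 0.05, 3 were lower (all genes 7.84%) and 0 higher (all genes 4.62%). None had separated groups (all genes 6.84%). Abcc8 was at 0.61, 0.051, -0.032 and 0.51 on control 1 to control 4 and at -0.32, -0.31, -0.25 and 0.032 on VEGF 1 to VEGF 4. Abcc8, the sulfonylurea receptor that partners Kcnj11, had the lowest difference of this list at -0.50 ± 0.15, with VEGF 4 inside the control range. Dpp10 stood at 0.60, 0.26, -0.22 and -0.19 on the control arrays, replicates 1 to 4, and at 0.19, 0.40, -0.73 and -0.48 on the VEGF arrays. Dpp10, an auxiliary subunit of Kv4 channels, was below the control range on VEGF 3 and VEGF 4 and within it on VEGF 1 and VEGF 2. Its difference was -0.27 (SE 0.27), -0.075 without VEGF 3, -0.10 without control 1, -0.16 without VEGF 4 and -0.45 without VEGF 2. Kcnv1 was at 0.26, 0.051, -0.051 and 0.16 on control 1 to control 4 and at -0.31, -0.26, -0.17 and 0.17 on VEGF 1 to VEGF 4. The silent subunit Kcnv1 was below the control range on VEGF 1 to VEGF 3 and differed by -0.25 (SE 0.11). On control 1 to control 4 the values of Kcnk5 were -0.27, -0.13, 0.16 and -0.018, against 0.018, 0.23, 0.56 and -0.025 on VEGF 1 to VEGF 4. The K2P channel Kcnk5 was above the control range on VEGF 2 and VEGF 3 and had the highest difference of this list at 0.26 (SE 0.13), 0.14 without VEGF 3.

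Markers of several cell types and neighbouring regions also differed between these arrays, and 0 of the markers passed the adjusted limma test. A lower mean was seen in 56.7% of all genes, a share that stands beside the counts below. The synapse and neuronal maturation list had 10 of 12 measured genes lower, and its mean was 0.097, 0.12, -0.0058 and 0.024 on control 1 to control 4 and 0.060, 0.040, -0.26 and -0.036 on VEGF 1 to VEGF 4, so VEGF 3 was lowest there as among the channels. Cortical projection neuron markers had 9 of 11 lower and list means of 0.0056 to 0.22 in control and -0.31 to -0.018 in the VEGF group, with VEGF 4 the nearest to control. Markers of GABAergic interneurons had 10 of 10 lower, with 0.0099 to 0.48 in control and -0.79 to -0.16 in the VEGF group and the lowest mean on VEGF 3. Striatal markers had 7 of 7 lower, with -0.0060 to 0.34 in control and -0.65 to -0.014 in the VEGF group.

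Thalamic markers had the other sign, with 9 of 9 higher in mean, although Lhx2 of this list is also a gene of cortical progenitors. Their mean was -0.35, 0.24, -0.16 and -0.31 on control 1 to control 4 and 0.67, 0.61, 0.14 and -0.19 on VEGF 1 to VEGF 4. It was highest on VEGF 1 and VEGF 2. On both of these arrays 7 of the channel members, or 14.9%, lay above the control range. That is near the share over all genes, 10.9%, and a link to the thalamic markers was not tested. Below the control range on both were 16 members (all genes 13.8%). Mitosis genes had 8 of 8 higher and means of -0.20 to 0.057 in control and -0.029 to 0.24 in the VEGF group, and radial glia genes 7 of 9 higher and -0.14 to 0.010 in control and 0.020 to 0.20 in the VEGF group. Astrocyte markers had 5 of 7 lower (0.0029 to 0.11 in control and -0.17 to -0.0003 in the VEGF group) and oligodendrocyte precursor markers 5 of 5 (-0.11 to 0.10 in control and -0.39 to 0.10 in the VEGF group). Erythroid genes had 6 of 6 higher (-0.17 to -0.027 in control and -0.012 to 0.75 in the VEGF group). Endothelial markers had 5 of 7 lower (-0.17 to 0.11 in control and -0.28 to 0.063 in the VEGF group), pericyte markers 4 of 6 (-0.11 to 0.087 in control and -0.18 to 0.034 in the VEGF group) and microglial markers 3 of 6 (-0.086 to 0.088 in control and -0.11 to 0.12 in the VEGF group). The median differences of these lists were -0.0010, -0.051 and -0.0064 in that order, against -0.010 for all genes. The part of these cell types and regions in the channel values was not tested, and in bulk tissue fewer cells of a type and less RNA per cell cannot be told apart.

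**Figure D5:**
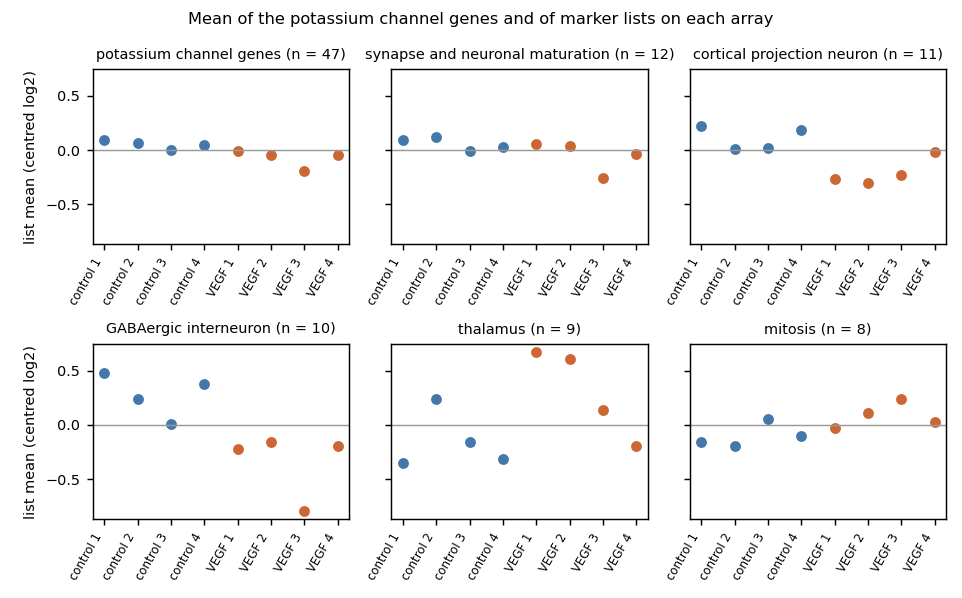
Mean of the 47 potassium channel genes and of 5 marker lists (y axis, centred log2) on each array (x axis, blue control, orange VEGF). The channel mean and the synapse mean are both lowest on VEGF 3, at -0.19 and -0.26, while the thalamus mean is highest on VEGF 1 at 0.67.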

How the data were processed

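Total RNA from a Qiagen RNeasy extraction, 120 ng per sample, was turned into biotinylated cDNA with the Ambion WT Expression kit and hybridised to Affymetrix arrays, per the labels' protocols. Expression Console from Affymetrix and the build mm8 appear in the submitters' processing notes, which say nothing here of background correction or summarisation. The deposited table holds values taken as log2 from their range, for 28853 probe sets on 8 arrays, with every probe set centred on its median to within 5e-07. Dim probe sets could therefore not be filtered, and the number of arrays limits the precision.

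Of the probe sets, 21789 had 1 symbol in the platform annotation, 1621 several and 5443 none, and 21698 symbols were updated through Entrez identifiers to RefSeq. Only those with 1 symbol were used. limma 3.58.1 (R 4.3.3) was fitted to all 19938 genes without covariates, after a test on simulated data, with Benjamini-Hochberg adjustment at 0.05. The alternatives were array centring, quantile normalization, a replicate block, a trended prior with robust fitting, weighting of arrays, a covariate for sex, the methods' unpaired t-test, the widest probe set and each array left out. The members and lists were chosen with earlier results of these data known. Values on every array are given for the 2 members of each subfamily with the largest absolute difference, for members with separated groups and for the 4 other channel genes of largest absolute difference. Kcnip4 and Kcnh2, whose VEGF arrays lie on both sides of the control range, were added after their values were seen, as was Kcnd2. At most 2 genes per marker list were to be named.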

Additional observations from a re-analysis of the deposited data

Results flagged for a closer look

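In 118 groups of 4 arrays, those of the 47 members, the 11 subfamily means and the mean of all members, 5 held an array whose gap to its nearest neighbour, as a share of the group's range, was above Dixon's critical value. Chance gives about 1 in 20. Kcnh5 was at -0.34 on VEGF 1, against -0.040 to 0.0025 on the other VEGF arrays. Kcnj9 was at -0.087 on VEGF 3, with the others between 0.029 and 0.049. Kcnk9 was at 0.13 on control 2, while the other control arrays lay between -0.022 and 0.0031. The Kv7 mean was 0.0057 on VEGF 4 and between -0.18 and -0.16 on the other VEGF arrays. The mean of the inward rectifiers was -0.048 on control 3, against 0.059 to 0.067 on the other control arrays. VEGF 4 thus lay nearest to control in the Kv7 channels, the subfamily of the lowest mean difference.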

How the results depend on the processing

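Over 43 results and 16 alternatives, 682 of 688 recomputed values lay within the spread between arrays or, for counts, within 1.5 times. The other 6 concern counts. This share does not measure stability. Leaving out 1 of 4 arrays cannot move a gene or subfamily difference by the whole spread. The replicate block, the trended prior and the t-test leave every difference as it is. Genes past the adjusted limma threshold numbered 1 after quantile normalization, no member, and 0 to 10 when 1 array was left out, with 10 without VEGF 4, and 0 members passed in any of the 16 alternatives. Members with separated groups numbered 5 to 15 when 1 array was left out, and fewer arrays make separation easier. The mean differences of all 11 subfamilies stayed below 0 in every alternative, from which nothing is read, since the members were chosen with this contrast known. Of the 47 members 36 kept their sign in every alternative and 11 did not. Scaling moved the median difference of all genes by 0.0091 (array medians) and 0.012 (quantiles).

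With the replicate number as a block, 0 genes and 0 members passed in limma. The median of the members was -0.12 as before, which the design fixes. Each number holds 1 control and 1 VEGF array, so the block cannot change a difference. The numbers were not taken as a pairing, since the deviations of same-numbered arrays correlated at 0.052, -0.130, 0.454 and 0.301 for numbers 1 to 4, and control 1 and control 2 each correlated better with another number. Depth in the sense of signal over background is unknown, since the deposited values keep no level.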
